A study of Homo sapiens with 24 samples.

Results

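The subject is a module of 42 genes of the unfolded protein response and the amino acid response, taken by name from a table of 28297 Ensembl genes; each name matched exactly 1 row. The module was divided by textbook knowledge into an ATF4 arm of 26 genes (stress transcription factors and their outputs, enzymes of serine, asparagine and mitochondrial one-carbon metabolism, and amino acid transporters) and an endoplasmic reticulum (ER) arm of 16 genes (stress sensors, chaperones, protein disulfide isomerases and degradation factors). Messenger RNA was sequenced in 24 libraries, 3 for each of 8 groups, from H9, an established human embryonic stem cell line. All groups were grown in E8 medium, and the labels describe each replicate as a pool of wells; p-values measure the spread between these pools.

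Cry2 cells carry the light-sensitive plant protein Cry2, which forms clusters when lit, fused to the intracellular part of LRP6, a Wnt co-receptor, linked to mCherry and a puromycin resistance gene; wt cells carry eGFP and a neomycin resistance gene and no receptor fusion. The 4 monoculture groups were Cry2 light, Cry2 dark, wt light and wt dark. The 4 co-culture groups were both kinds of cell grown together and then sorted: mCherry light, mCherry dark, GFP light and GFP dark, where mCherry marks the engineered cells and GFP the wild-type ones. Illumination lasted 48 h at an intensity of 0.8 µW/mm². The sorted GFP cells had been illuminated beside engineered cells, whereas the wt light cells had been illuminated alone.

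Cells that run short of amino acids or load their ER with unfolded protein activate kinases that phosphorylate the translation factor eIF2alpha. General translation then slows, while the mRNA of the transcription factor ATF4 is translated more, and ATF4 with C/EBP partners switches on genes that import and make amino acids. The ER has 2 further sensors of its own, ATF6 and the kinase-endonuclease ERN1 (IRE1), which raise chaperones and degradation factors, partly through spliced XBP1. ATF4 and XBP1 are controlled largely by translation and splicing, so their gene-level counts do not read out their activity.

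Reads assigned to genes ran from 28211236 to 56620471 per library. In monoculture the dark libraries held 28211236 to 34278319 reads and the light libraries 45748680 to 54689953, so depth and light cannot be told apart there; in co-culture depth and light did not separate. A low GC content marked wt dark library 1 (33.73%) and a low RNA integrity number Cry2 dark library 3 (7.6), and wt light library 2, mCherry light library a and, less so, GFP light library a stood apart from their groups in read counts. Under light the engineered cells changed state: all 8 pluripotency markers fell and all 8 primitive streak and early mesoderm markers rose in each culture. The summed streak markers reached 274800 to 283700 normalised counts in Cry2 light, against 229.2 to 285.6 in Cry2 dark. The same sum was 742.4 to 829.8 in GFP light and 223.6 to 290.3 in GFP dark. Of the definitive endoderm list, 3 of 4 tested genes (CXCR4, GATA6 and CER1) rose in Cry2 light, with a sum of 21300 to 21770 in Cry2 light and 95.31 to 128.0 in Cry2 dark, while its defining marker SOX17 was at most 8.8 in any group. Of the neural list OTX2, its only tested gene, rose in Cry2 light (list sum 1504 to 1907, against 1255 to 1485 in Cry2 dark), while PAX6 (at most 6.6) and NEUROG2 (at most 6.3) were at or near 0. Of the 4 fibroblast genes 1 rose and 1 fell in Cry2 light, and 3 rose and 1 fell in mCherry light. COL1A2 had 46294.0 to 51100.5 in Cry2 light and 4549.7 to 5045.2 in Cry2 dark, THY1 7888.7 to 8730.3 and 34540.1 to 36573.7. Of the amnion and surface ectoderm genes 2 rose and 2 fell in each culture, of 4 tested in Cry2 light and 5 in mCherry light. Among all genes, 28.1% were called higher and 30.4% lower in Cry2 light, and 27.2% and 28.7% in mCherry light.

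To show the DNA elements known for each arm, promoter sequences from RefSeq (GRCh38.p14, 250 bases before to 50 after each start) were searched on both strands. Of the 42 members, 36 had at least 1 promoter in that table; PSPH, SHMT2, ALDH1L2, SLC7A11, SLC7A3 and PDIA3 did not. The composite element bound by ATF4 and C/EBP factors, TGATGNAA, was found in 7 of 32 promoters of the ATF4 arm (ATF3, SLC1A4, ASNS, SLC3A2, SLC7A1, CHAC1 and CEBPG), in 1 of 21 of the ER arm (HERPUD1) and in 3.62% of all 35116 promoters. The ER stress response element, CCAAT and CCACG with 9 bases between them, was found in 8 of 21 promoters of the ER arm, belonging to 6 genes (HSPA5, HSP90B1, CALR, CANX, PDIA6 and XBP1), in 0 of 32 of the ATF4 arm and in 0.0769% of all. Its short variant, ATTGG and CCACG with 1 base between them, was found in HERPUD1 alone among the members and in 0.0541% of all promoters, and TGACGTGG, an element of the unfolded protein response, in no member and in 0.729% of all. A match is only a match of letters. The 5 sequences below show one example of each kind for genes described further on. Each is the 250 bases before the start, 5′ to 3′ on the gene's strand, with the fixed letters of the elements in capitals. They lie at chr7:97872409-97872658 (minus strand) for ASNS, chr15:40953221-40953470 (plus) for CHAC1, chr9:125241344-125241593 (minus) for HSPA5, chr12:103930160-103930409 (plus) for HSP90B1 and chr16:56931892-56932141 (plus) for HERPUD1.
ASNS: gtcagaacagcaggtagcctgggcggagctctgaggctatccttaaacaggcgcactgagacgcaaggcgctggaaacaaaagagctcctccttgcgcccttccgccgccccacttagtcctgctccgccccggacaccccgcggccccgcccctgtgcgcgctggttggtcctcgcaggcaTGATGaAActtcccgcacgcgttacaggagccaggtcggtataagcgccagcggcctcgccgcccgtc
CHAC1: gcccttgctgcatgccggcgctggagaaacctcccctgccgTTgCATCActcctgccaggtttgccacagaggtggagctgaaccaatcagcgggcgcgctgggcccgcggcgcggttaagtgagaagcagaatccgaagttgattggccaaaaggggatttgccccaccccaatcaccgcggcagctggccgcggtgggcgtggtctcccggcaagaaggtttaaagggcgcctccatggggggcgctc
HSPA5: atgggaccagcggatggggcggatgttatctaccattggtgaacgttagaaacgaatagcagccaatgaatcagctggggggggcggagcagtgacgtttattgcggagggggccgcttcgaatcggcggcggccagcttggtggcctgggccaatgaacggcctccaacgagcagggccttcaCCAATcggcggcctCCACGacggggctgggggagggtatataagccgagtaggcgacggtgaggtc
HSP90B1: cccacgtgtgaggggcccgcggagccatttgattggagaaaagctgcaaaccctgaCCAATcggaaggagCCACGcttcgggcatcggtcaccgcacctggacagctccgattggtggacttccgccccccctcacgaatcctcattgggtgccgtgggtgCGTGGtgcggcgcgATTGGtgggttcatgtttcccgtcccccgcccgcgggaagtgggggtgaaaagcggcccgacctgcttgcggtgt
HERPUD1: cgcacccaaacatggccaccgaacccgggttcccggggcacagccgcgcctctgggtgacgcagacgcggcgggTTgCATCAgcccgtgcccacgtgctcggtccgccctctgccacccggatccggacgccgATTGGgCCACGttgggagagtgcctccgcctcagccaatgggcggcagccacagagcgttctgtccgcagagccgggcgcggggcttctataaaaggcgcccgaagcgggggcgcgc
In CHAC1 and HERPUD1 the composite element lies on the other strand, so it reads there as its reverse complement, and HSP90B1 holds the ER element once on each strand.

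In engineered monoculture, light separated the arms. In Cry2 light against Cry2 dark, 24 of the 26 ATF4-arm genes fell and 2 rose, while 11 of the 16 ER-arm genes rose and 0 fell (limma, adjusted p under 0.05 over all 19444 genes tested; 5 ER genes, ERN1, EIF2AK3, XBP1, CANX and DNAJB9, did not pass). Among all genes tested, 28.1% were called higher and 30.4% lower, 58.4% in either direction. Light and dark libraries did not overlap for 39 of 42 members, beside 65.7% of all genes. The median log2 change was -1.02 over the ATF4 arm and 0.27 over the ER arm, beside -0.01 over all genes. These are mRNA amounts in bulk samples, in which fewer cells of a type and less RNA per cell cannot be told apart. The streak, endoderm and pluripotency markers moved with both arms, and their part in the result was not tested.

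**Figure D1:**
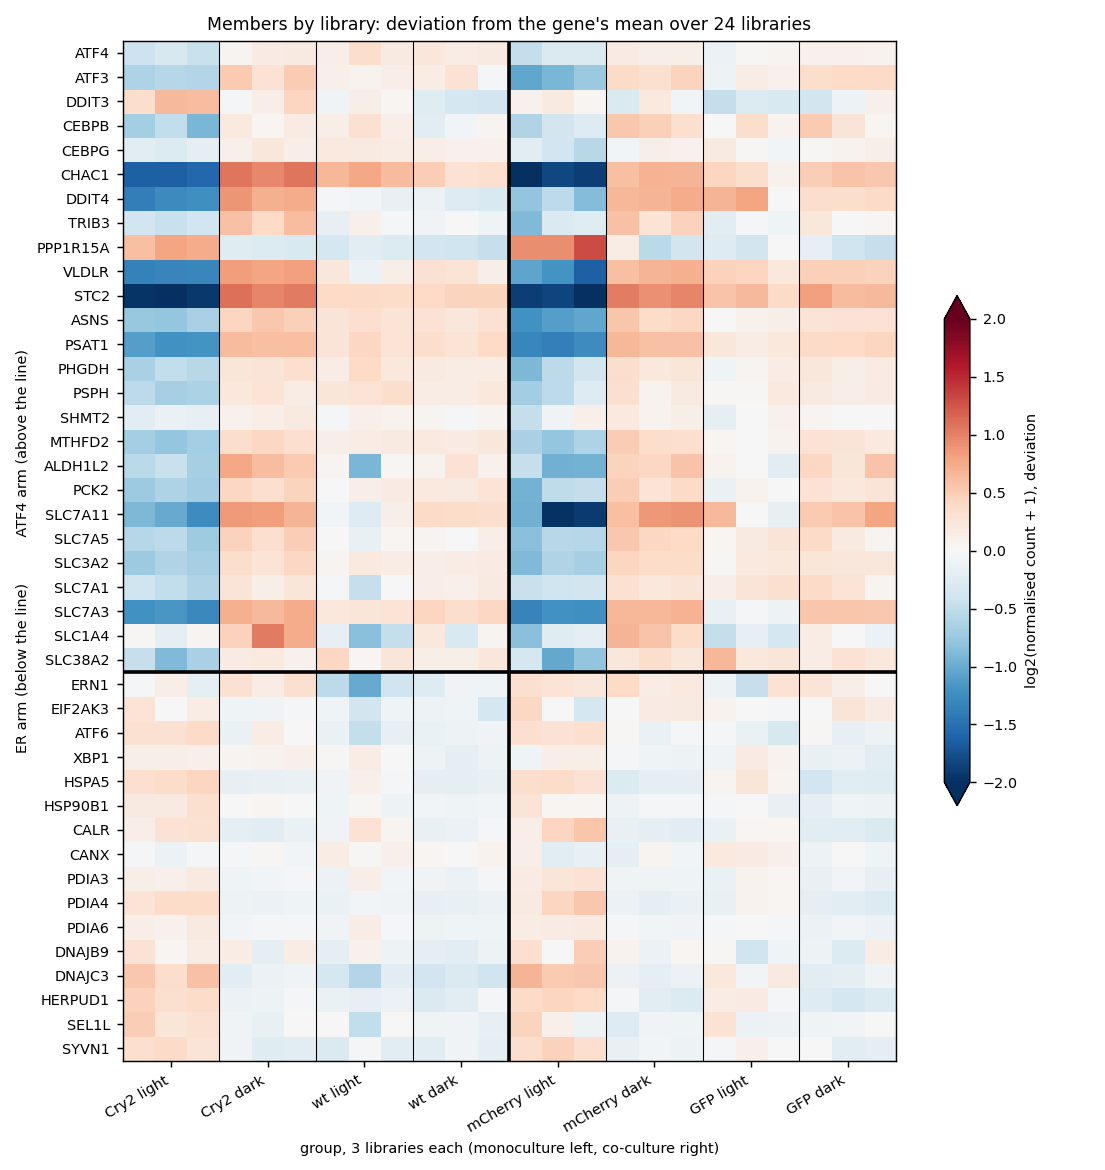
Heat map of the 42 members (rows; 26 ATF4-arm genes above the thick line, 16 ER-arm genes below it) in the 24 libraries (columns, 3 per group). Colour gives log2(normalised count + 1) minus the gene's mean over all libraries; blue is below the mean and red above it, and colours saturate at 2 in each direction. Most ATF4-arm rows are blue in Cry2 light and mCherry light, PPP1R15A being the clearest exception.

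Of the 6 stress outputs of the ATF4 arm 5 fell and 1, PPP1R15A, rose. Their median log2 change of -2.10 was the lowest among the gene groups of the arm. STC2, a secreted glycoprotein hormone induced by stress (chr5:173314713-173329503 on GRCh38, minus strand), had 846, 780 and 865 normalised counts in Cry2 light, against 7108, 6499 and 6760 in Cry2 dark. It was 8.17-fold lower, a log2 change of -3.03 (SE 0.06, limma adjusted p = 3.62e-15). All 3 illuminated libraries lay far below all 3 dark ones. CHAC1, an enzyme that breaks down glutathione (chr15:40952962-40956519, plus strand), had 666, 668 and 697 normalised counts in Cry2 light and 4366, 4053 and 4332 in Cry2 dark (6.28-fold lower, log2 change -2.65, SE 0.07). Its light and dark libraries were also far apart. VLDLR, the very low density lipoprotein receptor, had 942, 964 and 979 in Cry2 light and 4286, 4178 and 4244 in Cry2 dark (4.41-fold lower, log2 change -2.14). DDIT4, an inhibitor of the growth kinase complex mTORC1, had 1381, 1492 and 1536 in Cry2 light and 6595, 5897 and 6029 in Cry2 dark (4.2-fold lower, log2 change -2.07). In both genes every illuminated library was below every dark one. TRIB3, a pseudokinase that restrains ATF4, fell less, by 0.93 on the log2 scale. Genes with reads on the other strand overlap VLDLR, CEBPB, DDIT3, SHMT2, ALDH1L2 and PCK2 in the ATF4 arm. In the ER arm such genes overlap EIF2AK3, HSP90B1, PDIA3, PDIA6, DNAJB9 and SYVN1. No source used here states whether counting used strand, so reads of such pairs cannot be told apart.

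All 7 amino acid transporters fell. SLC7A3, a carrier of cationic amino acids (chrX:70925582-70931125, minus strand), had 4023, 4131 and 3812 normalised counts in Cry2 light, against 15224, 14578 and 15473 in Cry2 dark, which is 3.78-fold lower (log2 change -1.92, SE 0.05, limma adjusted p = 1.17e-13). SLC7A11, the cystine importer, had 856, 792 and 666 in Cry2 light and 2863, 2856 and 2549 in Cry2 dark (3.57-fold lower, log2 change -1.84). The groups of both transporters were far apart. SLC7A5 and SLC3A2, the 2 chains of the carrier for large neutral amino acids, fell alike, with log2 changes of -1.03 (SE 0.07) and -1.01 (SE 0.06). The log2 changes were -0.81 for SLC38A2 (glutamine and other small neutral amino acids), -0.78 for SLC1A4 (alanine, serine and cysteine) and -0.70 for SLC7A1 (arginine and lysine).

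Synthesis enzymes fell with the transporters, 4 of 4 in the amino acid group and 4 of 4 in the mitochondrial group. PSAT1, which makes phosphoserine, had 10498, 9697 and 9805 normalised counts in Cry2 light and 34866, 33977 and 33998 in Cry2 dark (3.43-fold lower, log2 change -1.78). The other enzymes of the serine pathway fell less: PHGDH, its first step, changed by -0.84 and PSPH, its last, by -0.81. ASNS, which makes asparagine and whose promoter is printed above, changed by -1.21 (SE 0.06). Of the mitochondrial enzymes, ALDH1L2 changed by -1.19, PCK2 by -1.08, MTHFD2 by -1.08 and SHMT2, which splits serine into glycine and a one-carbon unit, by only -0.31 on the log2 scale. Pseudogenes of members in the table (ASNS, PSAT1, MTHFD2, SLC7A5, ATF4, XBP1 and PDIA3) held at most 0.572% of the parent's mean, the highest share being that of PDIA3P1.

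Of the 5 transcription factors 4 fell and 1 rose. ATF4 itself had 20605, 21909 and 20231 normalised counts in Cry2 light, against 28600, 30751 and 31224 in Cry2 dark, 1.44-fold lower (log2 change -0.53, SE 0.07, limma adjusted p = 4.56e-06). Its groups did not overlap. ATF3 changed by -1.02, CEBPB by -0.83 and CEBPG, a dimerisation partner of ATF4, by -0.37; all 3 passed. The 2 members of the ATF4 arm that rose were PPP1R15A and DDIT3. PPP1R15A (GADD34), the regulatory subunit that directs a phosphatase to eIF2alpha, had 1668, 1899 and 1836 normalised counts in Cry2 light and 927, 905 and 894 in Cry2 dark (1.98-fold higher, log2 change 0.98, SE 0.07, limma adjusted p = 1.81e-08). Every illuminated library was above every dark one. DDIT3 (CHOP), a factor of prolonged stress, had 322, 396 and 388 in Cry2 light and 246, 276 and 341 in Cry2 dark (log2 change 0.37, SE 0.14, limma adjusted p = 0.0387). Its groups overlapped, and without Cry2 dark library 1 the log2 change was 0.26 with adjusted p = 0.168, with 3 other left-out libraries also ending the call. DDIT3 also overlaps MARS1, a tRNA synthetase gene on the other strand, whose log2 change was -0.80. PPP1R15A is also an early response gene, and a list of 10 dissociation and early response genes (FOS, EGR1, JUNB and others) moved with it: 8 rose, and their summed level was 19950 to 21480 normalised counts in Cry2 light, against 9427 to 10240 in Cry2 dark. Its part in the rise of PPP1R15A was not tested.

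The ER arm rose by smaller steps. DNAJC3 (P58IPK), an ER co-chaperone (chr13:95677139-95794989, plus strand), had 1440, 1263 and 1478 normalised counts in Cry2 light, against 856, 908 and 929 in Cry2 dark, 1.55-fold higher (log2 change 0.63, SE 0.10, limma adjusted p = 5.52e-05). HSPA5 (BiP), the main ER chaperone (chr9:125234853-125241330, minus strand), had 37323, 38204 and 40150 in Cry2 light and 26468, 26660 and 27033 in Cry2 dark (1.44-fold higher, log2 change 0.53, SE 0.06, limma adjusted p = 8.36e-07). In both genes all illuminated libraries exceeded all dark ones. The next 3 genes serve ER-associated degradation. SYVN1, its ubiquitin ligase, had 1960, 2022 and 1857 in Cry2 light and 1470, 1305 and 1345 in Cry2 dark (log2 change 0.50). HERPUD1, a membrane scaffold of the same complex, had 1284, 1172 and 1199 in Cry2 light and 856, 870 and 911 in Cry2 dark (log2 change 0.47). SEL1L, the adaptor of SYVN1, had 2279, 1913 and 1994 in Cry2 light and 1539, 1451 and 1598 in Cry2 dark (log2 change 0.43). None of these 3 genes overlapped between light and dark; SYVN1 shares bases with FAU, a gene on its own strand, which makes its count uncertain. PDIA4, a disulfide isomerase, had 23350, 25076 and 25140 in Cry2 light and 18080, 17884 and 18262 in Cry2 dark (log2 change 0.44).

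Of the other folding genes, the lectin chaperone CALR rose about as much as PDIA4, with a log2 change of 0.42. The log2 change was 0.21 for HSP90B1, 0.19 for PDIA3 and 0.17 for PDIA6, all called; the calls of PDIA3 and PDIA6 ended without Cry2 light library 3 (adjusted p = 0.0648 and 0.0856) and in several other left-out settings. CANX, the membrane-bound partner of CALR, had a log2 change of -0.04 (SE 0.05). Of the sensors only ATF6 was called, with a log2 change of 0.33 (SE 0.09, limma adjusted p = 0.00607). The values were 0.20 (SE 0.10) for EIF2AK3 (PERK), -0.29 (SE 0.16) for ERN1 and 0.04 (SE 0.06) for XBP1. DNAJB9, an ER co-chaperone strongly induced by spliced XBP1 in many systems, had 358, 304 and 328 normalised counts in Cry2 light and 325, 259 and 326 in Cry2 dark (log2 change 0.13, SE 0.13), with overlapping groups.

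**Figure D2:**
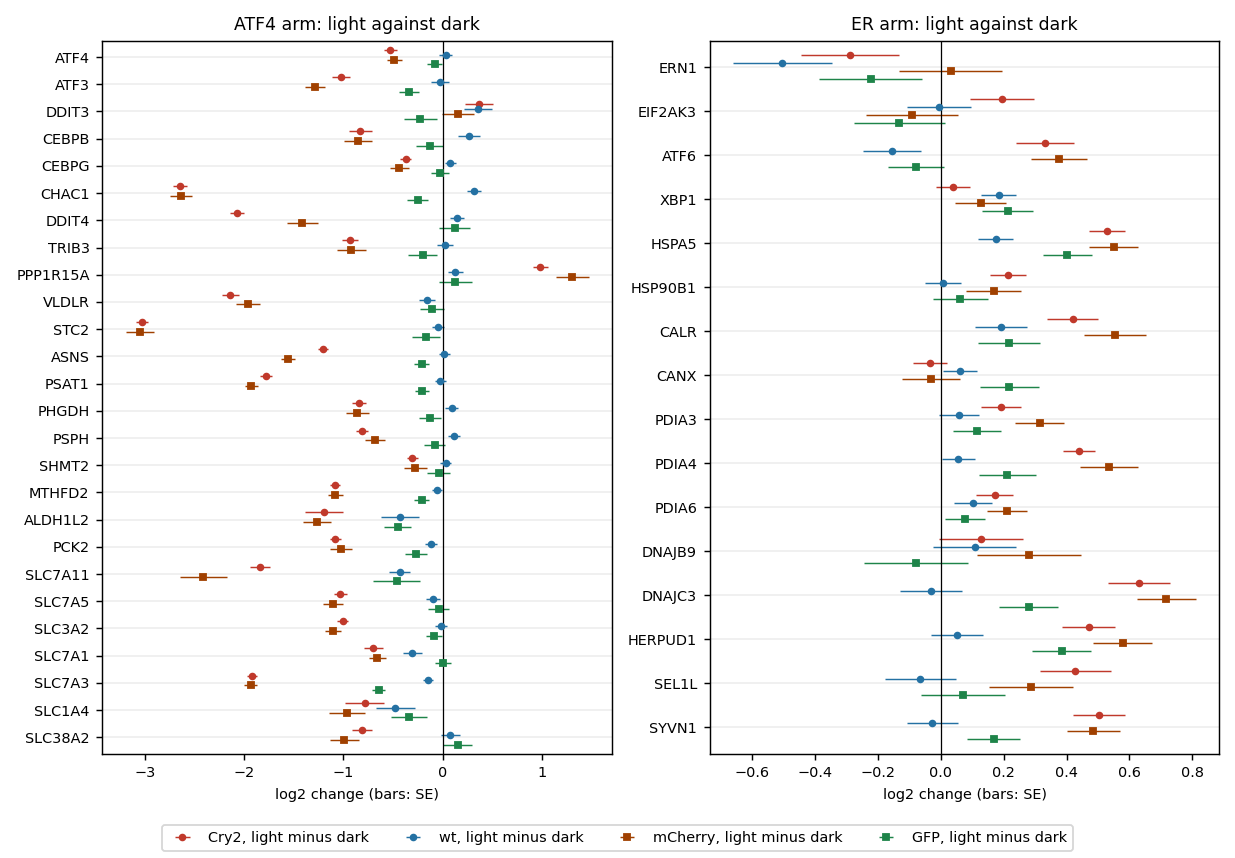
Log2 change of each member, light minus dark, in the ATF4 arm (left) and the ER arm (right), with bars of 1 SE; red and brown are engineered cells in monoculture and co-culture, blue and green wild-type cells. In engineered cells the lowest ATF4-arm values are those of STC2, -3.05 (mCherry) and -3.03 (Cry2), while PPP1R15A lies at 0.98 (Cry2) and 1.31 (mCherry); the axes of the panels differ in scale.

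In mCherry light against mCherry dark, 23 ATF4-arm genes fell and 1, PPP1R15A, rose, while 9 ER-arm genes rose and 0 fell; the background was 27.2% of 19436 genes called higher and 28.7% lower (55.9% in either direction). Groups did not overlap for 34 of 42 members, beside 58.4% of all genes. The median log2 change was -1.05 over the ATF4 arm and 0.30 over the ER arm, beside -0.01 over all genes. SHMT2 (log2 change -0.28, adjusted p = 0.0602) and DDIT3 (0.15, adjusted p = 0.451) did not pass.

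STC2 had 893, 922 and 575 normalised counts in mCherry light, against 6737, 6198 and 6520 in mCherry dark, 8.14-fold lower (log2 change -3.05, SE 0.14, limma adjusted p = 9.89e-11). CHAC1 had 446, 585 and 558 in mCherry light and 3153, 3360 and 3315 in mCherry dark (6.18-fold lower, log2 change -2.64, SE 0.11). The illuminated libraries of both genes lay far below the dark ones. SLC7A11 had 814, 404 and 421 in mCherry light and 2421, 2918 and 2978 in mCherry dark (5.07-fold lower, log2 change -2.41, SE 0.24). Library a, with 814, was nearly level with the Cry2 light libraries, the other 2 well below them. VLDLR had 1159, 1049 and 774 in mCherry light and 3652, 3860 and 3947 in mCherry dark (log2 change -1.96). SLC7A3 had 3672, 4014 and 3994 in mCherry light and 14803, 14717 and 15052 in mCherry dark (log2 change -1.93). PSAT1 had 9058, 8666 and 9417 in mCherry light and 35775, 33765 and 33685 in mCherry dark (log2 change -1.93). Groups of these 3 genes were likewise separate.

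Of the transcription factors, ATF4 had 19766, 22365 and 22508 normalised counts in mCherry light and 30829, 29794 and 29741 in mCherry dark (1.4-fold lower, log2 change -0.49, SE 0.08, limma adjusted p = 6.52e-05). PPP1R15A had 2106, 2091 and 2720 in mCherry light and 1213, 760 and 854 in mCherry dark (2.45-fold higher, log2 change 1.31, SE 0.16). Neither gene's groups overlapped, although the dark values of PPP1R15A were spread more widely than in monoculture. Of the dissociation and early response list, 8 of 10 rose here too, and the sum was 25340 to 28890 normalised counts in mCherry light, against 11720 to 14420 in mCherry dark; both mCherry groups had been sorted.

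In the ER arm DNAJC3 had 1593, 1425 and 1431 normalised counts in mCherry light, against 916, 877 and 908 in mCherry dark (1.65-fold higher, log2 change 0.72, SE 0.10, limma adjusted p = 1.19e-05). HSPA5 had 37678, 38083 and 36276 in mCherry light and 24523, 25851 and 26166 in mCherry dark (1.46-fold higher, log2 change 0.55, SE 0.08). HERPUD1 had 1217, 1256 and 1225 in mCherry light and 914, 797 and 770 in mCherry dark (log2 change 0.58). In all 3 genes light and dark libraries were clear of each other. CALR had 44317, 54145 and 59039 in mCherry light and 36495, 35645 and 34378 in mCherry dark (log2 change 0.55). PDIA4 had 22090, 26176 and 28081 in mCherry light and 17802, 16977 and 17665 in mCherry dark (log2 change 0.54). SYVN1 had 1976, 2140 and 1967 in mCherry light and 1401, 1498 and 1445 in mCherry dark (log2 change 0.48). Library a, which stood apart in its counts, was the lowest illuminated library for CALR and PDIA4 and still lay above every dark one.

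Set side by side, 33 members were called in the same direction in both cultures, 10 higher and 23 lower; 4 (DDIT3, HSP90B1, SEL1L and SHMT2) passed in monoculture and not in co-culture, and 0 the other way round. Across the 42 genes the light effects of engineered cells in the 2 cultures had a Pearson correlation of 0.981 and a Spearman correlation of 0.978, a description over genes that are not independent; the 2 sets share no library. The largest gap was that of DDIT4, with a log2 change of -1.42 in mCherry cells and -2.07 in Cry2 cells. Tested as a difference of light effects, mCherry minus Cry2, 0 of 42 members passed, with a background of 0.064% of 20322 genes; 3 had an unadjusted p under 0.05, and edgeR and DESeq2 also called 0. For DDIT4 the difference was 0.66 (SE 0.18, limma adjusted p = 0.409) and for ASNS -0.35 (SE 0.09, adjusted p = 0.293).

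Across all groups, 20 of the 26 ATF4-arm genes had all 6 illuminated engineered libraries below all 18 others, against 17.0% of all genes, and 0 of the 16 ER-arm genes did. In the opposite direction, 6 ER-arm genes (ATF6, HSPA5, PDIA4, DNAJC3, HERPUD1 and SYVN1) and PPP1R15A had all 6 above all 18 others, against 16.7% of all genes. Averaged over the arm as the mean log2 deviation from each gene's mean over 24 libraries, the ATF4 arm lay between -0.67 and -0.65 in Cry2 light and between 0.42 and 0.46 in Cry2 dark. It lay between -0.79 and -0.70 in mCherry light and between 0.37 and 0.44 in mCherry dark. The wild-type groups were in between: 0.06 to 0.12 in wt light, 0.10 to 0.14 in wt dark, 0.06 to 0.12 in GFP light and 0.23 to 0.28 in GFP dark. The ER arm lay between 0.20 and 0.24 in Cry2 light and between -0.07 and -0.02 in Cry2 dark, and between 0.23 and 0.28 in mCherry light and -0.08 and -0.06 in mCherry dark. For the ER arm, of the wild-type groups only GFP light (-0.01 to 0.02) was in between, above both dark engineered groups and below both illuminated ones. GFP dark (-0.12 to -0.11), wt light (-0.14 to -0.09) and wt dark (-0.15 to -0.12) lay below both dark engineered groups.

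**Figure D3:**
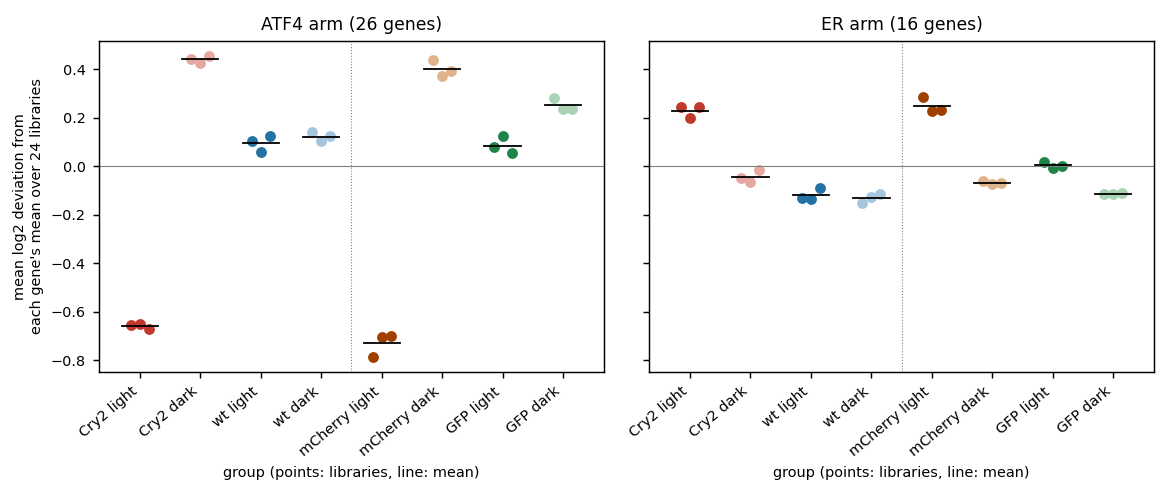
Mean log2 deviation from each gene's mean over 24 libraries, averaged over the 26 ATF4-arm genes (left) and the 16 ER-arm genes (right); points are libraries, lines group means, and the dotted line parts monoculture from co-culture. The ATF4 arm is lowest in the illuminated engineered groups (-0.79 to -0.65) and highest in the dark engineered groups (0.37 to 0.46).

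Wild-type cells cultured alone served to show what light did without the receptor fusion. In wt light against wt dark, 0 of 42 members passed in limma, with a background of 0.072%. Of the members, 12 had an unadjusted p under 0.05, 6 in each direction (no share over all genes given). Of the other tools, edgeR called 0 members. DESeq2 called 1 higher and 1 lower, beside 112 and 178 of 19444 genes. The median log2 change was 0.00 over the ATF4 arm and 0.05 over the ER arm, and single values ran from -0.51 (ERN1) to 0.36 (DDIT3). ATF4 had 30019, 35237 and 31115 normalised counts in wt light and 32255, 30552 and 31277 in wt dark (log2 change 0.03, SE 0.07), with overlapping groups. HSPA5 had 28262, 31782 and 29118 in wt light and 26081, 25867 and 26915 in wt dark (log2 change 0.17, SE 0.06, limma adjusted p = 0.246). Its groups did not overlap, as was so for 16 of 42 members and for 17.8% of all genes. CHAC1 had 3288, 3536 and 3209 in wt light and 2905, 2520 and 2628 in wt dark, a log2 change of 0.32 (SE 0.07, limma adjusted p = 0.0981), opposite in sign to that in Cry2 cells. Of the dissociation and early response list, 2 of 10 genes rose in wt light and 0 fell. The list sum was 13200 to 15810 normalised counts in wt light, against 9929 to 10690 in wt dark.

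Tested as the light effect in Cry2 minus that in wt, 23 members were lower and 9 higher, with a background of 25.0% and 22.8% of genes (47.8% in either direction). The 23 were all in the ATF4 arm; SLC1A4 and DDIT3 were the 2 members of that arm that passed in neither direction. The difference was -2.98 for STC2 (SE 0.08), -2.97 for CHAC1 (SE 0.10), -2.22 for DDIT4 (SE 0.10) and -0.56 for ATF4 (SE 0.09) on the log2 scale. The 9 were PPP1R15A, at 0.86 (SE 0.11), and 8 ER-arm genes, among them DNAJC3 at 0.66 (SE 0.14), SYVN1 at 0.53 (SE 0.12), ATF6 at 0.49 (SE 0.13) and HSPA5 at 0.35 (SE 0.08). DDIT3 had a difference of 0.01 (SE 0.20), since its log2 change was 0.37 in Cry2 cells and 0.36 in wt cells. The calls of 4 members, HSP90B1 (0.21), SEL1L (0.49), ALDH1L2 (-0.76) and SLC7A1 (-0.40), did not hold in every alternative setting. All 4 calls ended without the libraries of low GC and low RNA integrity, that of SEL1L only there. ALDH1L2 and SLC7A1 also lost their calls with no filter and in 7 single leave-outs each. HSP90B1 also lost its call in 9 single leave-outs, and with no filter, TMM scaling, all 24 libraries fitted together, the replicate block or edgeR.

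Wild-type neighbours of engineered cells had few calls. In GFP light against GFP dark, 2 ER-arm genes rose (HSPA5 and HERPUD1) and 1 transporter fell (SLC7A3), with a background of 2.39% of 19436 genes called higher and 2.21% lower (4.6% in either direction). SLC7A3 had 8391, 9179 and 8630 normalised counts in GFP light, against 13652, 13721 and 13581 in GFP dark, 1.56-fold lower (log2 change -0.65, SE 0.07, limma adjusted p = 3.27e-05). HSPA5 had 30931, 35239 and 30741 in GFP light and 22880, 25431 and 24957 in GFP dark (1.32-fold higher, log2 change 0.40, SE 0.08, limma adjusted p = 0.0078). HERPUD1 had 1030, 1050 and 912 in GFP light and 782, 734 and 774 in GFP dark (1.31-fold higher, log2 change 0.38, SE 0.09, limma adjusted p = 0.0299). Groups were separate in all 3 genes. Without GFP light library b, HSPA5 had an adjusted p of 0.0548 and HERPUD1 of 0.138, and HERPUD1 also lost its call in 4 other left-out settings, whereas SLC7A3 kept its call in every setting run. Without mCherry light library a, which enters the same fit, 4 members passed as higher and 6 as lower. The share of all genes called in that setting is not given, so the rise in calls cannot be read as particular to the members. ATF4 had 25456, 28025 and 28598 in GFP light and 29028, 29051 and 28703 in GFP dark (log2 change -0.08, SE 0.08), every illuminated library being below every dark one. Counting either direction, groups did not overlap for 20 of 42 members, beside 24.8% of all genes. Of the streak list 4 of 8 genes rose in GFP light, and 2 of 10 genes of the dissociation list; their part in these changes was not tested.

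The light effect in mCherry minus that in GFP was lower for 22 members, all of the ATF4 arm, and higher for 4 (PPP1R15A, ATF6, DNAJC3 and SYVN1); the background was 21.0% and 19.5% (40.5% in either direction). The difference was -2.89 for STC2 (SE 0.20), -2.38 for CHAC1 (SE 0.15), -1.29 for SLC7A3 (SE 0.09), -0.40 for ATF4 (SE 0.11) and 1.18 for PPP1R15A (SE 0.23). For HSPA5 the difference was 0.15 (SE 0.11, limma adjusted p = 0.32), with log2 changes of 0.55 in mCherry cells and 0.40 in GFP cells. SYVN1 (0.32), CEBPG (-0.41) and DNAJC3 (0.44) lost their call when single libraries were left out, and SYVN1 also with no filter, TMM scaling or edgeR (adjusted p = 0.0567, 0.0502 and 0.0549). SLC7A11 was highest in library a of both illuminated groups, at 814 in mCherry light and at 2504 in GFP light, where the others had 1595 and 1419. So was SLC38A2, with 12493, 7839 and 9192 in mCherry light and 25203, 18498 and 18791 in GFP light. Library a of CHAC1, in contrast, was the lowest in mCherry light (446) and the highest in GFP light (2794). Whether sorted mCherry and GFP libraries share wells was not tested. The fit treats them as separate, so the SEs here take no account of any pairing.

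The light effect in GFP minus that in wt, which sets wild-type cells with engineered neighbours beside those without, was lower for CHAC1 and SLC7A3 and higher for 0 members, with a background of 0.886% of 20322 genes called lower and 1.41% higher (2.3% in either direction). For SLC7A3 it was -0.50 (SE 0.08, limma adjusted p = 0.000642), from log2 changes of -0.65 in GFP cells and -0.15 in wt cells. For CHAC1 it was -0.57 (SE 0.13, limma adjusted p = 0.0167). CHAC1 had 2794, 2637 and 2202 normalised counts in GFP light and 2926, 3091 and 3027 in GFP dark. It had 3288, 3536 and 3209 in wt light and 2905, 2520 and 2628 in wt dark. The difference thus holds a fall in GFP cells and a rise in wt cells, neither of which passed by itself. Its call ended without wt dark library 2, GFP light library c or GFP dark library b (limma adjusted p = 0.0592, 0.0647 and 0.0529).

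**Figure D4:**
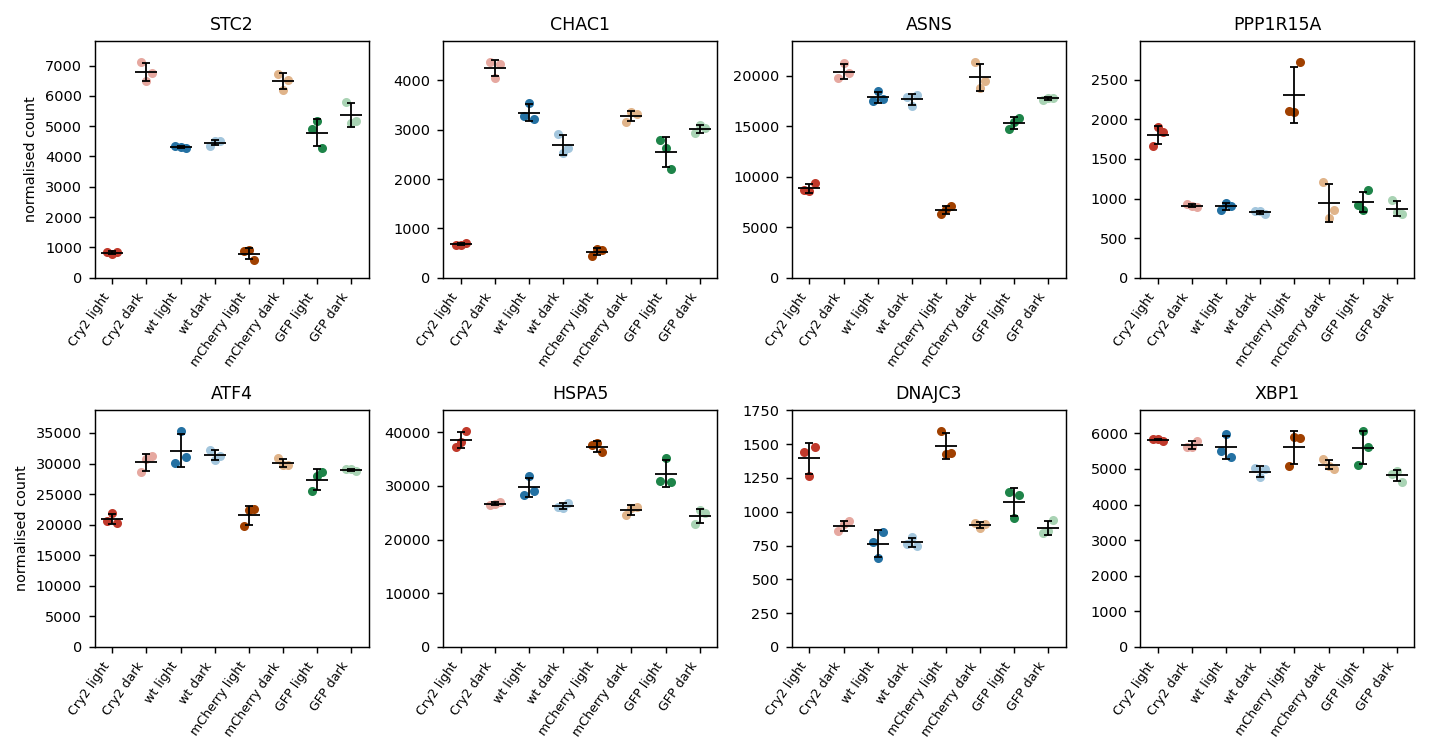
Normalised counts (linear axes from 0) of 8 members in the 8 groups; points are libraries, long marks the mean and bars the SD of 3 libraries. STC2, CHAC1, ASNS and ATF4 are lowest in the illuminated engineered groups, PPP1R15A, HSPA5 and DNAJC3 highest there, and XBP1 shows no such pattern.

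In the dark, engineered and wild-type monocultures also differed. In Cry2 dark against wt dark, 10 members were higher and 0 lower, all 10 in the ATF4 arm, with a background of 2.27% higher and 1.33% lower (3.6% in either direction). Groups did not overlap for 27 of 42 members, beside 27.4% of all genes. The median log2 difference was 0.24 over the ATF4 arm, 0.06 over the ER arm and 0.01 over all genes. DDIT4 had 6595, 5897 and 6029 normalised counts in Cry2 dark, against 3301, 3008 and 2896 in wt dark, 2.01-fold higher (log2 difference 1.01, SE 0.07, limma adjusted p = 8.44e-07). CHAC1 had 4366, 4053 and 4332 in Cry2 dark and 2905, 2520 and 2628 in wt dark (1.58-fold higher, log2 difference 0.67, SE 0.07). STC2 had 7108, 6499 and 6760 in Cry2 dark and 4359, 4514 and 4501 in wt dark (1.52-fold higher, log2 difference 0.61). No group overlapped with its counterpart in these 3 genes. VLDLR had 4286, 4178 and 4244 in Cry2 dark and 2978, 2913 and 2606 in wt dark (log2 difference 0.58). TRIB3 had 2082, 1825 and 2122 in Cry2 dark and 1326, 1396 and 1310 in wt dark (log2 difference 0.58). SLC1A4 had 324, 482 and 393 in Cry2 dark and 272, 189 and 243 in wt dark (log2 difference 0.76, SE 0.20, limma adjusted p = 0.0462). The first 2 of these were again well separated, while SLC1A4 was variable.

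The other called members were SLC7A11 (0.42), SLC7A5 (0.38), SLC7A3 (0.30) and PSAT1 (0.27). ATF4 mRNA itself did not pass, with a log2 difference of -0.06 (SE 0.07), nor did any ER-arm gene; HSPA5 had 0.02 (SE 0.06). Both libraries with the low GC content and the low RNA integrity number belong to this comparison. Without them 5 members passed, a count given without the share of all genes called in that setting. SLC1A4, SLC7A11, SLC7A5, SLC7A3 and PSAT1 did not pass, and their log2 differences were 0.88, 0.48, 0.34, 0.30 and 0.28. Leaving out single libraries of the 6 ended the call of SLC1A4 and SLC7A11 in all 6 cases and that of PSAT1 in 5, and SLC7A11 had an adjusted p of 0.307 with all 24 libraries fitted together. DESeq2 called 16 members higher and edgeR 10, beside 776 and 514 of 19444 genes. Sorted from dark co-culture, the same cells gave no call. In mCherry dark against GFP dark, 0 of 42 passed in limma, edgeR and DESeq2, with a limma background of 0.797%. An unadjusted p under 0.05 was seen for 5 members, all higher in mCherry dark (no share over all genes given). Groups did not overlap for 15 of 42 members, 14 of them in the ATF4 arm, beside 16.5% of all genes. There DDIT4 had 5708, 5722 and 5986 normalised counts in mCherry dark and 4584, 4585 and 4707 in GFP dark (log2 difference 0.33, SE 0.16, limma adjusted p = 0.894). These groups did not overlap. The SE takes in the spread of all 4 co-culture groups, and the SD of DDIT4 was 1410 in GFP light, against 156 in mCherry dark and 70.3 in GFP dark. The median log2 difference over the ATF4 arm was 0.13 in co-culture; whether the monoculture and co-culture differences themselves differ was not tested.

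**Figure D5:**
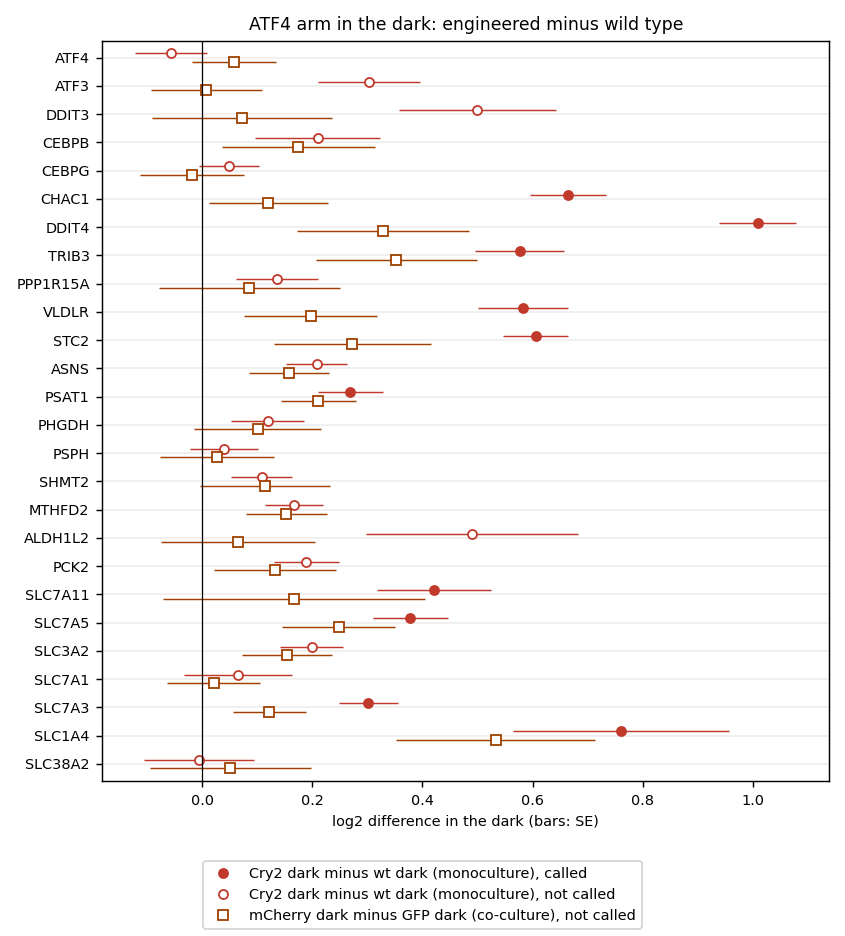
Log2 difference of each ATF4-arm gene in the dark, engineered minus wild type, in monoculture (red circles) and co-culture (brown squares), with bars of 1 SE; filled symbols passed at adjusted p under 0.05. The 10 filled symbols, from 0.27 (PSAT1) to 1.01 (DDIT4), are all from monoculture.

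No member passed the threshold between cultures in the dark. In mCherry dark against Cry2 dark, 0 of 42 passed in limma and edgeR, and DESeq2 called 1 lower. The background by adjusted p in limma was 0.0148%. An unadjusted p under 0.05 was seen for 3 members (no share over all genes given). In GFP dark against wt dark, 0 of 42 passed in limma and edgeR, and DESeq2 called 1 higher. The background by adjusted p in limma was 0.0295%. An unadjusted p under 0.05 was seen for 7 members, all higher in GFP dark (no share over all genes given). DDIT4 had the largest of these, 4584, 4585 and 4707 in GFP dark against 3301, 3008 and 2896 in wt dark (log2 difference 0.59, SE 0.13, adjusted p = 0.105). Sorting, co-culture and any batch coincide in these contrasts and cannot be told apart. Depth goes with them too. Cry2 dark libraries held 28211236 to 31593572 assigned reads and mCherry dark libraries 44119439 to 51901423. The wt dark libraries held 30681716 to 34278319 and the GFP dark libraries 46019002 to 56620471.

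Genes of the same pathways outside the module, in lists also chosen with earlier results known, were counted in the same comparisons. Of 12 aminoacyl-tRNA synthetases, which charge tRNAs and of which many respond to ATF4, 10 fell and 0 rose in Cry2 light against Cry2 dark, led by TARS1 (log2 change -1.07), EPRS1 (-1.05) and AARS1 (-0.96). The background for these and the following lists was 28.1% of all genes called higher and 30.4% lower in Cry2 light, and 27.2% higher and 28.7% lower in mCherry light. In mCherry light against mCherry dark, 10 fell and 1, YARS1, rose. TARS1 had 8841, 8305 and 8889 normalised counts in Cry2 light, against 18177, 18465 and 18072 in Cry2 dark. Of 18 other ATF4 and amino acid response genes, 15 fell and 2 rose in Cry2 light, and 13 fell and 2 rose in mCherry light. FGF21, a secreted stress hormone, had 6.3, 2.4 and 0 normalised counts in Cry2 light and 91.4, 66.4 and 52.1 in Cry2 dark, too few in the light for a fold to be given. NUPR1, a stress-induced nuclear protein, had 0.9, 4.1 and 3.5 in Cry2 light and 48.3, 43.8 and 49.1 in Cry2 dark. GPT2, a mitochondrial alanine transaminase, had a log2 change of -1.55, and the 2 that rose were SHMT1 (0.68) and SLC7A6 (0.31).

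Upstream of ATF4, 2 of 6 genes for the eIF2alpha kinases and their partners fell and 1 rose in each engineered light comparison, shares near or below the background of 30.4% lower and 28.1% higher in Cry2 light and 28.7% and 27.2% in mCherry light. EIF2AK4 (GCN2), the kinase that senses uncharged tRNA, had 4209, 4042 and 3830 normalised counts in Cry2 light, against 12363, 12156 and 11783 in Cry2 dark (3.01-fold lower, log2 change -1.59). It also fell in GFP light, with 8019, 8459 and 8240 there and 12167, 12564 and 11903 in GFP dark (1.48-fold lower, log2 change -0.57, limma adjusted p = 0.000153). EIF2AK2 (PKR) changed by -1.26 and EIF2B5, a subunit of the exchange factor for eIF2, by 0.40 in Cry2 cells. Of 28 further ER folding, export and degradation genes, 19 rose and 4 fell in Cry2 light, and 15 rose and 4 fell in mCherry light, beside the same background. MANF, an ER-resident secreted protein, had 4054, 4264 and 4350 in Cry2 light and 2462, 2221 and 2244 in Cry2 dark (1.83-fold higher, log2 change 0.87); DNAJB11, a co-chaperone of HSPA5, had a log2 change of 0.81. EDEM2 (-0.90), DERL3 (-0.74) and SERP1 (-0.36) led those that fell. All 4 genes of the ATF6 processing list rose in both cultures, beside 28.1% and 27.2% of all genes: CREB3L2, a related membrane-bound factor, by 1.53 and the proteases MBTPS1 and MBTPS2 by 0.55 and 0.50 on the log2 scale in Cry2 cells.

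In Cry2 dark against wt dark, 5 of the 18 other ATF4 genes were higher and 0 lower, among them NUPR1 (2.13), ATF5 (0.59) and SESN2 (0.55 on the log2 scale); the background was 2.27% of all genes higher and 1.33% lower. Of the 12 tRNA synthetases 0 passed, and of the 28 ER genes 2 were higher, DERL3 (0.56) and EDEM2 (0.40).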

How the data were processed

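Polyadenylated RNA was sequenced from H9 cells with a stranded kit, per the labels' protocols; the submitters' processing notes name FastQC, cutadapt, Bowtie2, STAR, HTSeq and DESeq without versions or order. The deposited table holds a signal, namely read counts per gene divided by a size factor per library, called normalised counts here. All values (100.0%) were whole reads within 0.01 once multiplied by the recovered factor. The authors also deposited an RNA integrity score and a GC percent for the monoculture libraries. The processing notes and a file header name different genome builds, so positions come from GENCODE or RefSeq on GRCh38 by gene identifier. The 4 features of the transgenes and resistance genes were left out, giving 28297 genes.

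Monoculture columns were assigned to samples by description. Co-culture columns name only the condition, so their libraries a, b and c carry no number that could pair them; mCherry and GFP cells were sorted from shared co-cultures, and any pairing was not tested or modelled. Genotypes follow sample titles, because the genotype tags of the monocultures contradict them; the construct reads in the table go with the titles.

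Values were analysed as log2(value + 1) with limma 3.58.1 (trend) in R 4.3.3, after keeping genes that reached 10 in 3 or more libraries, separately in the 12 monoculture and the 12 co-culture libraries and, for contrasts across cultures, in all 24. Fold changes are ratios of group means; log2 changes are on the log2(value + 1) scale and understate the change of low genes. P-values were adjusted by Benjamini-Hochberg over all genes tested, with a threshold of 0.05. Background shares of genes called count adjusted p-values of limma only. For unadjusted p-values no share over all genes is given. A count test had been planned if the values were raw counts; since they are scaled, edgeR 4.0.16 (quasi-likelihood) and DESeq2 1.42.0 were run on the recovered reads as alternatives. In Cry2 light against Cry2 dark edgeR called 5481 genes higher and 5900 lower, and limma 5458 and 5902. Other alternatives were pseudocount 10, no filter, a filter at 100, TMM scaling, all libraries in one fit, the replicate number as a block, and leaving out libraries. The procedure was tested on simulated data. Figures were drawn with matplotlib 3.10.9 in python 3.11.15.

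The members and all gene lists were chosen with earlier results of these data known. Values per library are given for up to 6 called members per arm and direction with the largest change, and for ATF4 and HSPA5 in light comparisons; from other lists, up to 3 genes per direction. DNAJB9, XBP1, MARS1 and other genes given beyond that were chosen after their values were seen.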

Additional observations from a re-analysis of the deposited data

Results flagged for a closer look

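The results below were singled out because a test of the difference between 2 light effects (an interaction term in limma) passed. The effects came from 2 kinds of cell or, for GFP minus wt, from wild-type cells in 2 cultures. The light effect in Cry2 minus that in wt was higher for 9 members and lower for 23. The light effect in mCherry minus that in GFP was higher for 4 members and lower for 22. The light effect in GFP minus that in wt was lower for 2 members, CHAC1 (-0.57 on the log2 scale, SE 0.13) and SLC7A3 (-0.495, SE 0.08), and the summed streak and mesoderm markers were 742.4 to 829.8 normalised counts in GFP light, against 221.8 to 235.0 in wt light; their part in these differences was not tested.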

How the results depend on the processing

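No member called by limma changed direction under any alternative run, and in mCherry light against mCherry dark no call was lost. Calls were lost in at least 1 alternative by 3 members in Cry2 light against Cry2 dark, 5 in Cry2 dark against wt dark, 4 in Cry2 minus wt light effects, 2 in GFP light against GFP dark, 3 in mCherry minus GFP light effects and 1 in GFP minus wt light effects. DESeq2 called 1 member higher and 1 lower in wt light against wt dark, 16 higher in Cry2 dark against wt dark, 4 lower in GFP light against GFP dark, 1 lower in mCherry dark against Cry2 dark and 1 higher in GFP dark against wt dark. Over all genes its calls were, in the same order, 112 higher and 178 lower, 776 higher, 741 lower, 16 lower and 27 higher. Without the libraries of low GC and low RNA integrity, 5 members were higher in Cry2 dark against wt dark. In GFP light against GFP dark, 5 members were lower with all 24 libraries fitted together, and 4 were higher and 6 lower without mCherry light library a; leaving out single libraries of the GFP groups gave 0 to 2 higher. In GFP minus wt light effects, leaving out single libraries gave 1 to 2 lower. The cause was not tested, and the share of all genes called in these left-out and joint fits is not given. Same-numbered monoculture libraries did not deviate together (correlations of -0.06 to 0.06). No pairing by number was seen, which does not settle how the replicates were made. With the replicate number as a block, 13 members were higher and 24 lower in Cry2 light against Cry2 dark. The counts were 0 and 0 in wt light against wt dark, 9 and 0 in Cry2 dark against wt dark, and 8 and 23 in Cry2 minus wt light effects. No paired analysis was run in co-culture. The columns there carry no replicate numbers, and any pairing of mCherry with GFP libraries was not tested. With 3 libraries per group, small differences in the wild-type and dark comparisons may lie below what these tests can call.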
